A study of Mus musculus with 31 samples.

Results

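The respiratory chain of mitochondria is built mainly from subunits that are encoded in the nucleus, and these nuclear encoded genes are described here in tumours of AB1-mCherry, a mouse mesothelioma cell line that carries the red fluorescent protein mCherry. Members were all genes whose symbols begin with Nduf followed by a, b, c, s or v and a number, with Uqcr, with Cox4 to Cox8, or with Atp5, and that reached at least 1 TPM (a relative transcript level, scaled for transcript length and for the size of the library) in at least 5 whole tumour libraries. Of 86 matching symbols, 81 met the level and 5 did not (Cox7b2, Cox8c, Ndufa11b, Ndufb11b and Ndufs6b), and 13 symbols with a pseudogene suffix had been left out by name. The 81 members were 39 of complex I, 8 of complex III, 17 of complex IV and 17 of complex V, among 54456 genes listed and 15054 tested. The table of sorted cells lists 12461 genes, of which 12357 were tested, and 74 members appear there by the same symbol, in 38, 8, 13 and 15 per complex. The 7 others are Atp5md, Atp5pb, Cox4i2, Cox6a2, Cox6b2, Cox8b and Ndufb1.

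AB1-mCherry cells, selected by sorting for bright mCherry before culture, were placed under the skin (subcutaneous), in the peritoneal cavity or in the pleural cavity of female BALB/c mice aged 12 weeks. No group received a treatment, all groups carry the same fluorescent line, and all tissue was taken on day 10. Whole tumours gave 5 subcutaneous, 5 peritoneal and 6 pleural libraries, and cells sorted as mCherry positive and negative for the leukocyte marker CD45 gave 5 libraries per site, 31 libraries in all. The comparison asks how the anatomical site relates to the RNA of the same cancer cells, with the subcutaneous site taken as the reference here. A single injected line stands for mesothelioma in this design, and each site places it beside different host tissue.

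Complex I (NADH dehydrogenase) and complex II feed electrons to coenzyme Q, complex III passes them to cytochrome c, complex IV (cytochrome c oxidase) hands them to oxygen, and the proton gradient that results drives complex V, the ATP synthase. Complex II is encoded wholly in the nucleus, while complexes I, III, IV and V also contain subunits of the mitochondrial genome, so both genomes must supply parts. Several subunits exist as a common form and a tissue-restricted form: Cox6a2, Cox7a1 and Cox8b are known from heart and skeletal muscle, Cox4i2 is linked to low oxygen and to lung, Cox6b2 to testis, and Ndufa4l2 is a paralogue of Ndufa4 that is induced in low oxygen and is found in pericytes. Ndufa4 is now assigned to complex IV, and it is grouped here by its symbol.

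A few libraries stood apart, and some member counts and shares are also given without them. In whole tumours, pleural 3 had 5968 TPM of 8 cardiac muscle markers against 4.13 to 32.8 in the other 15 libraries, and it was the highest of the 16 libraries for 42 of the 81 members. Skeletal muscle markers (18 genes) summed to 854 and 958 TPM in pleural 3 and 5, 28.8 to 40.1 in the other pleural tumours, 37.1 to 52.4 in peritoneal and 106 to 1576 in subcutaneous tumours. Among sorted cells, subcutaneous 1 and 2 held 549 and 400 TPM of 10 leukocyte markers against 17.7 to 101 elsewhere, and peritoneal 5 was the highest library for 44 of the 74 members. In these bulk samples, fewer cells of a type and less RNA per cell cannot be told apart.

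The members were abundant and even. Their median level over all whole tumours was 205 TPM, against 15.7 TPM over all tested genes, and 67 of 81 had a mean of at least 100 TPM. In sorted cells the median was 189 TPM, against 16.2 TPM for all tested genes. The highest library was less than 2 times the lowest for 92.6% of the members in whole tumours and 95.9% in sorted cells, against 65.1% and 48.7% of all tested genes. No set of genes matched to the members in level was used, here or for the intervals below, so evenness that goes with level is not set apart. The 6 whole tumour members with a wider range were Cox6a2, Cox7a1, Cox8b, Ndufa4l2, Cox6b2 and Cox4i2, all of them tissue-restricted forms. They were also the 6 members with a mean below 20 TPM, so a wide range that goes with low level is not set apart. In sorted cells the 3 were Ndufa4l2, Cox7a1 and Cox6c2, the last a processed pseudogene by annotation that nearly copies Cox6c, so its levels, 269.8 to 458 TPM in whole tumours and 0 to 122 TPM in sorted cells, are uncertain.

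All 81 members together took 2.05% of whole tumour TPM, with 1.83% in pleural 2, the lowest library, and 2.27% in pleural 3, the highest. The share was 2.07% ± 0.0545 (SD, n = 5) in subcutaneous, 2.08% ± 0.0792 (n = 5) in peritoneal and 2.00% ± 0.148 (n = 6) in pleural tumours, and 1.95% ± 0.0737 (n = 5) in pleural tumours without pleural 3. Complex V took the largest part, 0.714% of TPM on average, followed by complex I with 0.605%, complex IV with 0.529% and complex III with 0.199%. This order held at every site. Cox6c2 adds to the complex IV share, which was 0.496% in whole tumours without it. Sorted cells gave 1.80% for the 74 members listed, with 1.78% ± 0.102 (SD, n = 5) in subcutaneous, 1.90% ± 0.214 (n = 5) in peritoneal and 1.71% ± 0.0481 (n = 5) in pleural cells. Without peritoneal 2 and 5, the peritoneal libraries with the largest shares, the peritoneal share was 1.75% ± 0.0281 (n = 3). The site means lay closer together than the spread within the peritoneal group, whose libraries ran from 1.72% to 2.24%. The share has no test, and the tables were normalized apart and list different members, so it is not compared between them.

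**Figure D1:**
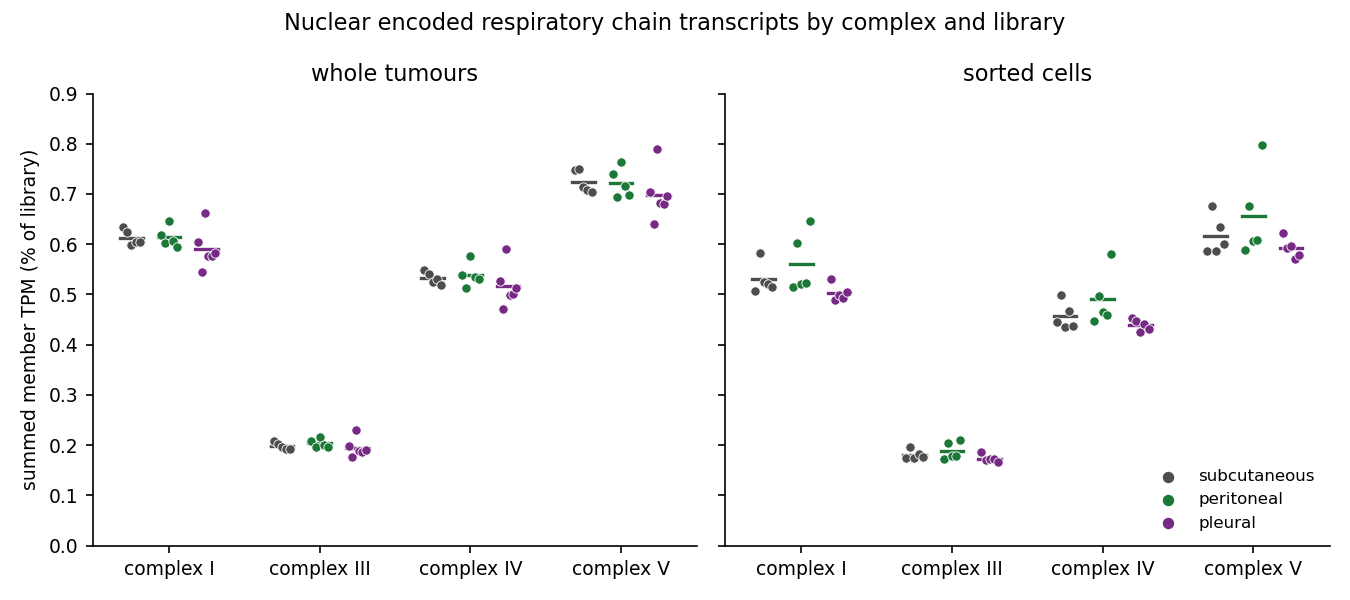
Summed TPM of the members of complexes I, III, IV and V as a percent of each library's TPM (vertical axis), for whole tumours (left) and sorted cells (right), with points for libraries coloured by site and bars for site means. Complex V lies highest near 0.7% of whole tumour TPM and complex III lowest near 0.2%, and the sites overlap within every complex.

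The leading member of each complex showed the same evenness. Atp5b, the catalytic beta subunit of the ATP synthase, was the most abundant member, with 1332, 1389, 1266, 1303 and 1248 TPM in subcutaneous tumours, 1318, 1204, 1346, 1289.5 and 1264 TPM in peritoneal tumours, and 1191 to 1362 TPM (median 1247) in pleural tumours. Cox4i1, the common form of the largest nuclear encoded subunit of complex IV, lay at 654 to 705 TPM in subcutaneous, 645 to 781 TPM in peritoneal and 576 to 716 TPM in pleural tumours. The 3 ranges of each gene overlapped. Ndufa4 ran from 426 to 520.2 TPM in subcutaneous, 454 to 513 TPM in peritoneal and 371 to 511 TPM in pleural tumours. Uqcrh, the hinge protein of complex III, ran from 386 to 417, 388 to 454 and 359 to 445 TPM. None of these 4 genes passed the test in any of the 6 comparisons.

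Each site was compared with each other by limma on log2(TPM + 1), with Benjamini-Hochberg adjustment over all genes tested in the table and an adjusted p below 0.05. All log2 differences below are on this scale, and the comparisons of a table share libraries, so they are not independent of each other. In whole pleural against subcutaneous tumours, 0 members passed as higher and 1 (Ndufc2) as lower, while 9.4% of all tested genes passed as higher and 3.4% as lower (12.8% in either direction). At an unadjusted p below 0.05, 14 of 81 members and 30.8% of all genes passed. Without pleural 3, 11 members were lower and 0 higher, where 4.48% of all genes were lower. Pleural 2, the lowest of the whole tumour libraries for 47 of the 81 members, stayed in that fit. The median difference over members was −0.05 on the log2 scale, beside 0.07 over all genes, and 66 of 81 members had a negative value. Cytosolic ribosomal protein genes also had a negative median, −0.09, with 11 of 86 tested lower and 0 higher. Without pleural 3 the member median was −0.09 and 74 members were negative. Under median-of-ratios scaling 9 members were lower and 0 higher, the member median was −0.14 with 79 of 81 negative, and 6.07% of all genes were lower and 4.28% higher.

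Those 11 members, named after their values were seen, were 7 of complex I (Ndufc2, Ndufb7, Ndufa11, Ndufb10, Ndufb8, Ndufs8 and Ndufb4c), 3 of complex IV (Cox8a, Cox6a1 and Cox7c) and Atp5e of complex V. Their differences without pleural 3 were small, from −0.25 to −0.13 on the log2 scale. Pleural 3 was above the mean of the other pleural tumours for 79 of the 81 members, so leaving it out was bound to lower the pleural means. The 11 calls and the shift without pleural 3 are therefore a description only. Ndufb7, an accessory subunit of the membrane arm, stood at −0.23 (SE 0.05) in that fit. It had 149, 150.1, 147, 153 and 149 TPM in subcutaneous tumours and 134, 116, 132, 132 and 124 TPM in the 5 pleural tumours other than pleural 3, which had 175 TPM. Pleural 3 was thus above every subcutaneous tumour and the 5 others below every one. Cox8a and Cox6a1, the common forms of 2 small subunits of complex IV, ran from 516 to 631 TPM and 438 to 527 TPM in pleural tumours, against 610.2 to 681 TPM and 503 to 543 TPM in subcutaneous tumours. Ndufb4c is a processed pseudogene by annotation, so its value is uncertain. The part of cardiac or skeletal muscle in these differences was not tested.

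In whole peritoneal against subcutaneous tumours, 2 members were higher (Ndufa6 and Cox7a2l) and 1 lower (Ndufc2), beside 8.52% and 3.64% of all tested genes (12.2% in either direction). The member median was 0.01, with 46 of 81 positive, but it became −0.07 with 72 of 81 negative when libraries were scaled by the median of ratios, so no direction of the group is given. In pleural against peritoneal tumours, limma called 0 of 81 members, and 0.0531% of all genes (8 of 15054, 0.0266% in each direction), while 5 members had an unadjusted p below 0.05, where 11.1% of all genes did. The 95% interval of the difference lay within 0.5 of 0 for 75 of 81 members in each of the 3 comparisons, against 70.9%, 69.1% and 78.7% of all genes. The libraries of the 2 sites did not overlap for 1, 4 and 0 members in pleural against subcutaneous, peritoneal against subcutaneous and pleural against peritoneal tumours, beside 7.76%, 12.5% and 1.14% of all genes.

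In sorted cells, 1 member (Ndufa4l2) was lower and 0 higher in pleural against subcutaneous cells, where 1.25% of all tested genes were lower and 0.397% higher. In peritoneal against subcutaneous cells, 3 members were higher (Ndufv3, Atp5h and Cox7a2l) and 1 lower (Ndufa4l2), beside 4.75% and 6.33% of all genes. In pleural against peritoneal cells, 0 members were higher and 3 lower (Atp5h, Ndufa6 and Ndufs7), beside 4.45% and 5.51%. The shares of members called were 1.35%, 5.41% and 4.05%, beside 1.64%, 11.1% and 9.96% of all genes in either direction. The 1.35% is the 1 call of Ndufa4l2, which was tested only because the subcutaneous libraries passed the filter. At an unadjusted p below 0.05 the counts were 8, 13 and 20 of 74 members, where 11%, 29.1% and 28.9% of all genes passed. The libraries did not overlap between sites for 2, 2 and 7 members, beside 3.11%, 9.48% and 9.57% of all genes. The 95% interval lay within 0.5 of 0 for 71, 70 and 68 of 74 members, against 63.5%, 49.9% and 48.4% of all genes.

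The sorted pleural cells lay below peritoneal cells for 66 of 74 members, with a median of −0.14 against 0.00 over all genes. This was not particular to the members, since the 84 tested cytosolic ribosomal protein genes had a median of −0.18. Of these 84 genes, 11 were lower and 0 higher, beside 5.51% and 4.45% of all genes. The medians by complex were −0.14 for complex I, −0.09 for III, −0.12 for IV and −0.17 for V. Peritoneal 2 and 5 had the largest member shares of the peritoneal libraries, 1.98% and 2.24% of TPM. Their mean was above that of the other 3 peritoneal libraries for 65 of 74 members, with a median ratio of 1.20. They stand out in the member values themselves, so leaving them out was bound to shrink the shift. The values without them are therefore a description only. Without these 2 libraries the member median was −0.03, with 47 members negative, the all-gene median was −0.09, and 1 member (Atp5h) remained called. Against subcutaneous cells the peritoneal member median went from 0.05 to −0.04 on leaving them out, and 0 of the 3 higher calls remained. Subcutaneous 2, with a member share of 1.95%, was kept in that fit.

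**Figure D2:**
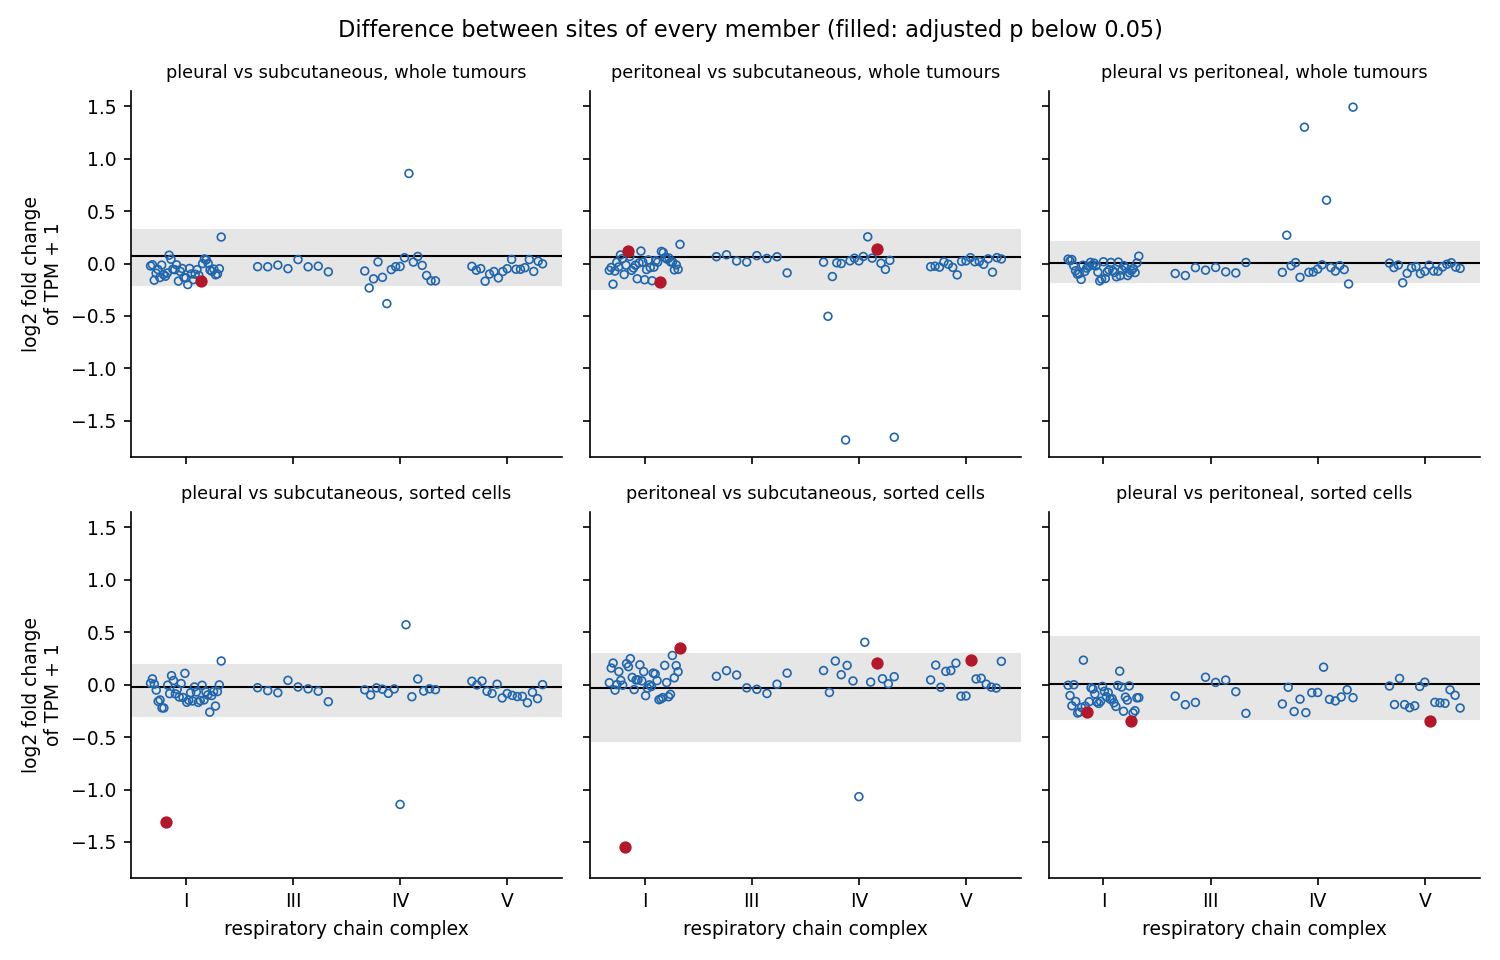
Log2 fold change of TPM + 1 (vertical axis) of every member, by complex, in the 6 comparisons between sites, with 1 point per member and filled points for those with an adjusted p below 0.05. Most points lie within 0.5 of 0, and the few outside it are Ndufa4l2, the Cox6a2, Cox7a1, Cox8b and Cox4i2 forms, and Cox6c2.

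The 12 calls of the 6 comparisons fell on 7 members. Of these 7, 5 belong to complex I by name, as do 39 of the 81 members in whole tumours and 38 of the 74 in sorted cells. Ndufc2, an accessory subunit of the membrane arm of complex I, had 158, 158, 150.2, 155 and 148 TPM in subcutaneous tumours. It had 149, 126, 140.0, 131 and 134 TPM in peritoneal tumours and 129 to 157 TPM (median 135) in pleural tumours. Peritoneal 1 and pleural 3 reached into the subcutaneous range and the others lay below it. The differences were −0.18 (SE 0.05, limma adjusted p = 0.0402) for peritoneal and −0.17 (SE 0.05, adjusted p = 0.0446) for pleural against subcutaneous, and were lost in 12 and 16 of 27 alternative analyses. In sorted cells the ranges overlapped, with 117 to 137 TPM in subcutaneous, 101 to 135 TPM in peritoneal and 103 to 121 TPM in pleural cells, and no comparison passed.

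Ndufa6, a small accessory subunit that anchors the acyl carrier protein to the peripheral arm of complex I, was higher in peritoneal than in subcutaneous tumours. Its levels were 237, 248, 261, 250.1 and 244 TPM in peritoneal and 231, 230.3, 231, 218 and 228 TPM in subcutaneous tumours, with no overlap (0.12, SE 0.04, limma adjusted p = 0.0436), a call lost in 16 of 27 alternative analyses. In sorted cells it was lower at the pleural site, with 258, 243, 234, 266 and 249.6 TPM against 286, 318, 279.7, 278 and 337 TPM in peritoneal cells (−0.26, SE 0.06, adjusted p = 0.0237). These groups did not overlap either, but the call was lost without peritoneal 2 or without pleural 3.

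Ndufs7, a core subunit that carries an iron-sulfur cluster next to the site where coenzyme Q is reduced, had 88.3, 109.6, 92.4, 87.1 and 85.6 TPM in sorted pleural and 99.7, 124, 111, 113 and 144 TPM in sorted peritoneal cells. Pleural 2 overlapped the peritoneal range and the other 4 did not (−0.34, SE 0.10, limma adjusted p = 0.0396). Ndufv3, an accessory subunit of the NADH-oxidising tip, had 155, 226, 178, 155 and 203 TPM in sorted peritoneal and 143, 157, 132, 147 and 133 TPM in sorted subcutaneous cells, so 1 subcutaneous library lay inside the peritoneal range (0.35, SE 0.10, adjusted p = 0.0408). Both calls were lost without peritoneal 2 and without peritoneal 5, and in 12 and 15 of 26 alternative analyses in all.

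Cox7a2l, a relative of the complex IV subunit Cox7a that helps join complexes III and IV into supercomplexes, was higher in peritoneal than in subcutaneous samples of both tables, which share mouse numbers and are not independent of each other. Whole tumours had 301, 344, 321, 303 and 303 TPM in peritoneal and 275, 274, 302, 292 and 283 TPM in subcutaneous tumours, where 1 subcutaneous value lay above the lowest peritoneal one (0.14, SE 0.04, limma adjusted p = 0.0449). Sorted cells had 380.2, 409, 374, 392 and 405 TPM in peritoneal and 329.9, 368, 329, 349.7 and 319 TPM in subcutaneous cells, with no overlap (0.21, SE 0.06, adjusted p = 0.0288). The sorted call was lost in 9 of 26 alternative analyses, among them without subcutaneous 1, 3 or 5 and without peritoneal 2 or 5, and the whole tumour call in 17 of 27. Pleural means lay between those of the other sites, with libraries at 288 to 311 TPM in tumours and 327 to 373 TPM in sorted cells, and no comparison with the pleural site passed.

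Atp5h, subunit d of the stalk that holds the ATP synthase still, had 394, 459, 374, 398 and 449 TPM in sorted peritoneal cells, 355, 318, 298, 334 and 328 TPM in pleural cells and 339.7, 374, 342, 351 and 344 TPM in subcutaneous cells. All 5 peritoneal values were above all 5 pleural values, and the lowest peritoneal value was equal to the highest subcutaneous one after rounding. The pleural minus peritoneal difference was −0.34 on the log2 scale (SE 0.07, limma adjusted p = 0.00925), and −0.25 (adjusted p = 0.0409) without peritoneal 2 and 5. The call against pleural cells held in 25 of 26 alternative analyses and sat on the threshold under median-of-ratios scaling (adjusted p = 0.0500). Peritoneal cells were above subcutaneous cells by 0.24 (SE 0.07, adjusted p = 0.0330), a call lost in 11 of 26 alternative analyses, among them without peritoneal 2 or 5. In whole tumours the 3 sites overlapped for Atp5h, at 391 to 439, 394 to 452 and 361 to 481 TPM.

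**Figure D3:**
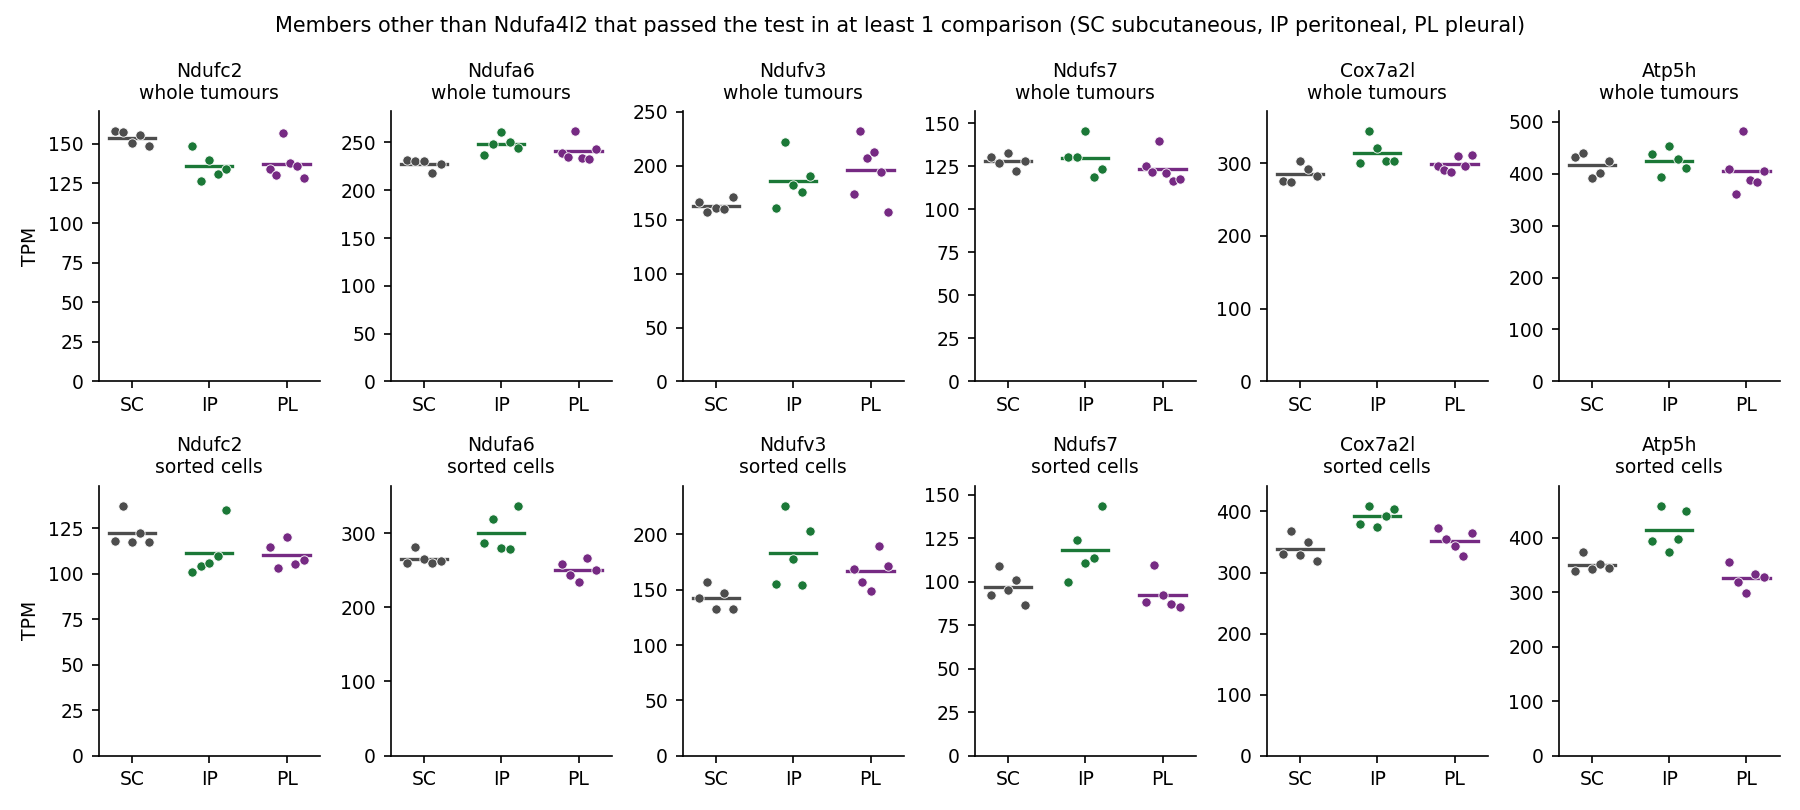
TPM (vertical axis, from 0) of the members other than Ndufa4l2 that passed the test in at least 1 comparison, with points for libraries and lines for site means, in whole tumours and sorted cells. The differences are small beside the level, as for Ndufc2 with means of 154 TPM in subcutaneous and 137 TPM in pleural tumours.

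The promoters of 3 of these genes are shown because the genes are lower in pleural than in peritoneal sorted cells, and because they differ in the motif letters they hold. Sequences are 300 bases around the gene start from RefSeq on GRCm38.p6, another build than the one behind the TPM values, written 5′ to 3′ on the gene's strand. Capitals mark letters of the NRF1 motif (GCGCA and GCGC with any 1 base between them), the ETS family motif CCGGAAG, the YY1 motif AAGATGGCG or the TATA box TATAAA, on either strand. Atp5h lies at chr11:115419870-115420169 (minus strand) with an NRF1 and an ETS match, Ndufa6 at chr15:82354242-82354541 (minus strand) with an NRF1 match, and Ndufs7 at chr10:80249199-80249498 (plus strand) with a TATA and a YY1 match.
Atp5h: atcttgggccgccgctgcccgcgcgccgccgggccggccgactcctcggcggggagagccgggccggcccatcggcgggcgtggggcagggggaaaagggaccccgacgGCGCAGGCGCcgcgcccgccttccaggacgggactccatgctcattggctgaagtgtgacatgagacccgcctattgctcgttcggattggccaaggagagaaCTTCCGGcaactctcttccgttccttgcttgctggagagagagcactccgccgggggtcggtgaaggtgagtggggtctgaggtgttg
Ndufa6: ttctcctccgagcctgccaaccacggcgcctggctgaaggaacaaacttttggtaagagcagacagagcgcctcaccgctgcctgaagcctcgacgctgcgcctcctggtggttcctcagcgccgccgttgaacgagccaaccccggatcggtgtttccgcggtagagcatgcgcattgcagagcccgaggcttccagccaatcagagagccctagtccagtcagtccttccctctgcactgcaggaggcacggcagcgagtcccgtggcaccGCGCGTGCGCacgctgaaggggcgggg
Ndufs7: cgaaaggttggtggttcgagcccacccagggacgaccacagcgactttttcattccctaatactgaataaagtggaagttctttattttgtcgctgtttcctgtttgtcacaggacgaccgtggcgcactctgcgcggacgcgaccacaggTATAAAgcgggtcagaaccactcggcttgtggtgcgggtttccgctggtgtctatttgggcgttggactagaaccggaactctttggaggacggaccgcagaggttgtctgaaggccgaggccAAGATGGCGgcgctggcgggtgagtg

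NRF1 (nuclear respiratory factor), the ETS factor GABP and YY1 are known regulators of respiratory chain genes. RefSeq promoters were found for 65 of the 81 members, in 70 windows, and both strands were searched for exact letters. The NRF1 letters were in 16 of the 70 member windows (22.86%) and 4.603% of 32851 windows of the same length over all genes. The ETS letters were in 15 (21.43%, against 8.858%) and the YY1 letters in 7 (10%, against 1.403%), and these 2 motifs share the letters AAG and can overlap. TATAAA was in 8 member windows (11.43%, against 13.62%) and the muscle E-box CAGCTG in 6 (8.571%, against 16.3%). By complex, the NRF1 letters were in 8 of 35 windows of complex I, 1 of 5 of III, 1 of 12 of IV and 6 of 18 of V. A match of letters is a description and not a binding site.

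Ndufa4l2, the paralogue of Ndufa4 induced in low oxygen, had the largest differences from subcutaneous cells among the 74 members in sorted cells. Its level was 6.19, 1.84, 2.72, 3.94 and 2.67 TPM in subcutaneous cells, 0.569, 0.329, 0.732, 0.258 and 0.428 TPM in peritoneal cells, and 0.698, 0.0501, 0.446, 1.25 and 1.52 TPM in pleural cells. All 5 subcutaneous values were above the 10 others. Ndufa4l2 reached 1 TPM in 5 of 5 subcutaneous, 0 of 5 peritoneal and 2 of 5 pleural libraries, so it was tested in sorted cells only because the subcutaneous libraries passed the filter, and its calls are read with that in mind. The difference from subcutaneous cells was −1.55 (SE 0.25, limma adjusted p = 0.00151) in peritoneal and −1.31 (SE 0.25, adjusted p = 0.0109) in pleural cells, on a log2(TPM + 1) scale that understates a change at such low levels. Pleural and peritoneal cells overlapped (0.23, adjusted p = 0.573). Over 25 alternative analyses that kept the gene, 1 of them with no filter, adjusted p ran from 0.000907 to 0.0454. Without subcutaneous 1 and 2, the libraries with the highest sums of leukocyte markers, the differences were −1.49 for peritoneal and −1.25 for pleural cells. A filter of 5 TPM left the gene out.

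Whole tumours did not show that order for Ndufa4l2. Levels were 3.68, 13.9, 5.94, 6.35 and 16.5 TPM in subcutaneous tumours, 5.47, 15.0, 5.77, 6.57 and 7.19 TPM in peritoneal tumours and 3.00 to 18.2 TPM (median 6.88) in pleural tumours. The sites overlapped throughout, with differences of −0.10 (limma adjusted p = 0.897) for peritoneal and −0.12 (adjusted p = 0.868) for pleural against subcutaneous tumours. As a share of Ndufa4 plus Ndufa4l2, Ndufa4l2 had a median of 1.37%, 1.32% and 1.65% in subcutaneous, peritoneal and pleural tumours, and 0.544%, 0.0716% and 0.138% in the sorted cells of the 3 sites.

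Car9, a carbonic anhydrase widely used as a marker of low oxygen, is set beside Ndufa4l2 as 1 gene of a hypoxia list of which 14 were tested in sorted cells. It had 17.9, 22.7, 17.3, 32.4 and 24.8 TPM in subcutaneous, 39.6, 75.9, 103, 64.3 and 52.8 TPM in peritoneal and 72.1, 91.6, 119, 145 and 119 TPM in pleural cells. Car9 was higher by 2.20 (limma adjusted p = 5.67e-05) in pleural and by 1.47 (adjusted p = 0.00155) in peritoneal than in subcutaneous cells, with no overlap. It was the 1 hypoxia gene of 14 called in each of these comparisons, and the list medians were 0.49 for pleural and −0.18 for peritoneal against subcutaneous cells, the latter 0.01 without peritoneal 2 and 5. The 4 endothelial and pericyte markers listed for sorted cells summed to 25.0 to 39.5 TPM in subcutaneous, 3.99 to 11.6 TPM in peritoneal and 5.81 to 16.7 TPM in pleural cells, in the same direction as Ndufa4l2. All 4 passed as lower in peritoneal and 2 in pleural against subcutaneous cells. The leukocyte marker Cd53 also passed as lower at both sites, with 9.76 to 38.4 TPM in subcutaneous, 2.49 to 4.37 TPM in peritoneal and 1.34 to 3.27 TPM in pleural cells, alone among 9 leukocyte markers tested. The medians of these 9 were −1.48 for pleural and −1.36 for peritoneal against subcutaneous cells, also in the direction of Ndufa4l2. At an unadjusted p below 0.05, 3 and 5 of the 9 passed, where 11% and 29.1% of all genes did. The pericyte markers Rgs5, Cspg4, Abcc9, Kcnj8 and Higd1b are not among the genes listed for sorted cells. The part of pericytes, endothelium or leukocytes in the Ndufa4l2 difference was not tested.

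**Figure D4:**
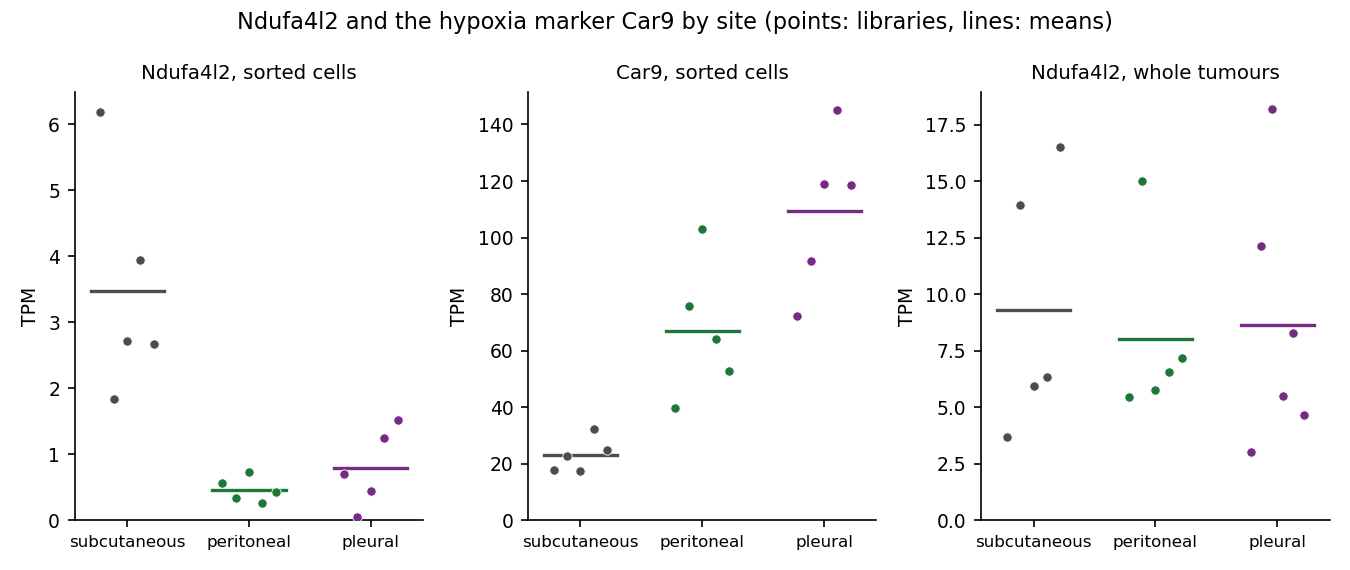
TPM (vertical axis) of Ndufa4l2 in whole tumours and sorted cells and of Car9 in sorted cells, by site, with points for libraries and lines for site means. In sorted cells the 5 subcutaneous libraries are highest for Ndufa4l2 and lowest for Car9, while in whole tumours the sites overlap for Ndufa4l2.

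The muscle forms of complex IV subunits varied widely between libraries in whole tumours. Cox6a2 had 5.10, 12.8, 2.27, 8.19 and 7.75 TPM in subcutaneous, 1.23, 0.750, 1.77, 0.790 and 2.35 TPM in peritoneal tumours, and a pleural median of 1.23 TPM with 17.9 TPM in pleural 5 and 103 TPM in pleural 3. Cox8b had 4.07, 6.12, 0.847, 4.12 and 1.23 TPM in subcutaneous tumours, 0 to 0.935 TPM in peritoneal tumours, 12.0 TPM in pleural 5 and 59.4 TPM in pleural 3. Pleural 3 and 5 also had high sums of skeletal muscle markers, and pleural 3 had 5968 TPM of cardiac muscle markers. Subcutaneous tumours had skeletal muscle sums of up to 1576 TPM and at most 6.12 TPM of Cox8b. The part of muscle tissue in these values was not tested. Cox6a2 was 16.4% of Cox6a1 plus Cox6a2 in pleural 3 and at most 2.30% in the subcutaneous tumours.

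No comparison of Cox6a2 or Cox8b passed with all libraries. Leaving out pleural 3 and 5 removes the 2 highest pleural values of Cox6a2 itself while the subcutaneous tumours with muscle markers stay, so the Cox6a2 difference without them (−1.87 for pleural against subcutaneous) is not read as a result. Cox7a1, a form also found in brown fat and other tissues, had 65.0 TPM in pleural 3 and 5.63 to 12.1 TPM in the other 15 tumours. It was the muscle form listed in sorted cells, at 3.53 to 9.59 TPM in subcutaneous, 6.07 to 12.9 TPM in peritoneal and 8.75 to 13.4 TPM in pleural cells (pleural against subcutaneous 0.57, adjusted p = 0.391). Cox4i2 had 2.92 ± 0.648 TPM (SD, n = 5) in subcutaneous and 1.75 ± 0.323 TPM (n = 5) in peritoneal tumours without overlap, yet did not pass (−0.50, limma adjusted p = 0.115). Cox6b2 stayed between 1.01 and 3.89 TPM, and its sites overlapped. In every whole tumour library the common forms Cox4i1, Cox6a1, Cox6b1, Cox7a2 and Cox8a exceeded the restricted ones in TPM, a unit per transcript length.

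The Cox8b promoter is printed because the gene ranges from 0 in several peritoneal tumours to 59.4 TPM in pleural 3. Its window, chr7:140900397-140900696 on the minus strand (GRCm38.p6, RefSeq, 5′ to 3′), has 2 marked copies of the E-box CAGCTG and 1 TATAAA in capitals, and neither the NRF1, ETS nor YY1 letters.
Cox8b: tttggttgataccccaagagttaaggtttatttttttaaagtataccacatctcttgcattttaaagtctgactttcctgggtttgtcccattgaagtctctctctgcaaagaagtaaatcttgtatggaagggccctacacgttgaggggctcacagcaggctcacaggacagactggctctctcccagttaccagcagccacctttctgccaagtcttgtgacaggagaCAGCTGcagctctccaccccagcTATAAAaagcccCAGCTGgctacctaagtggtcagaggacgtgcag

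**Figure D5:**
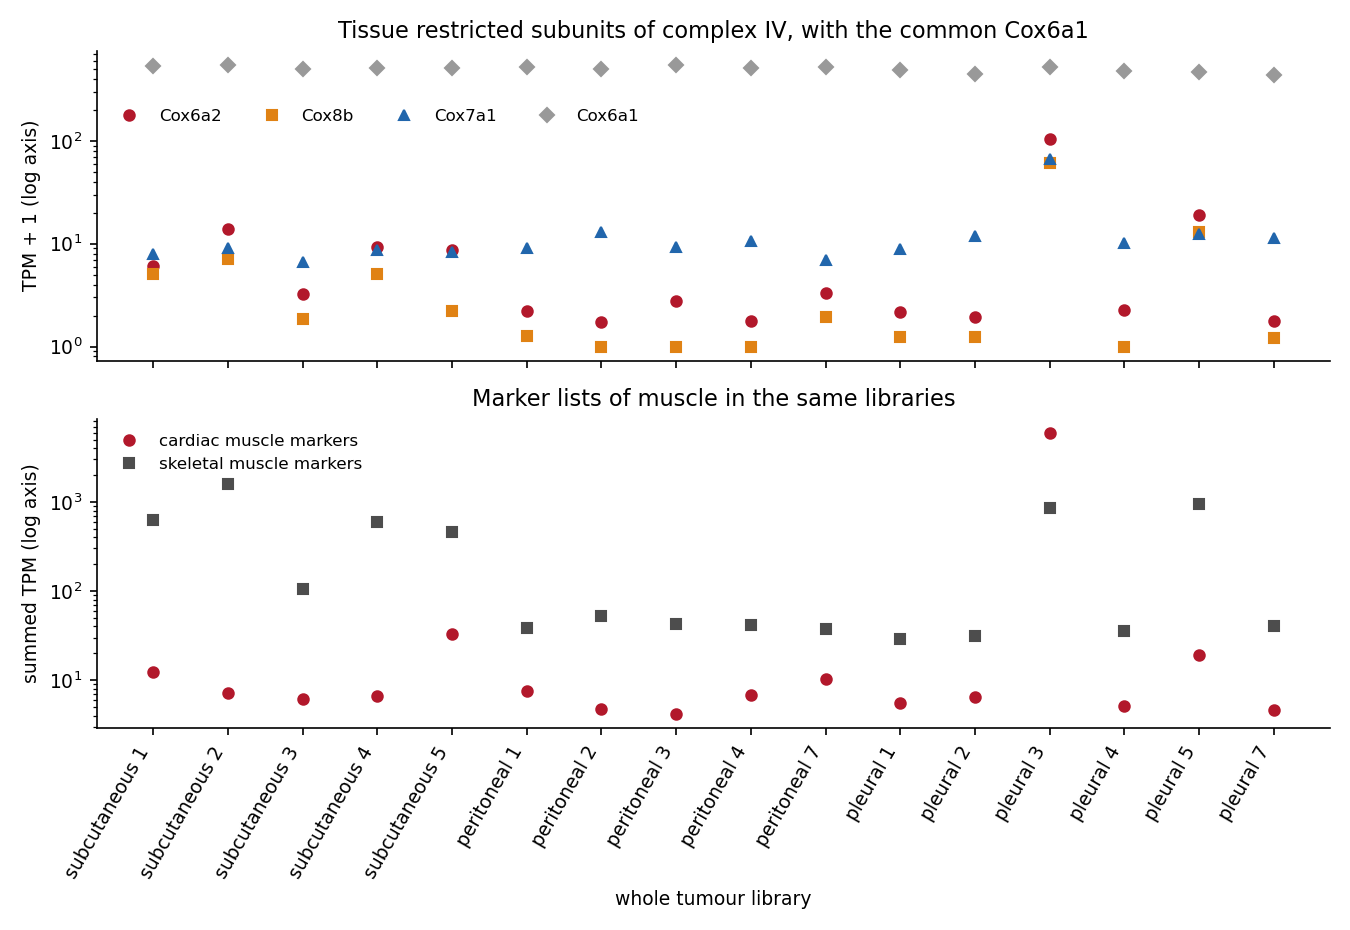
TPM + 1 of the complex IV forms Cox6a2, Cox7a1 and Cox8b with the common Cox6a1 (upper panel, log axis), and summed TPM of the skeletal and cardiac muscle marker lists (lower panel, log axis), in each whole tumour library. Pleural 3 is the highest library for Cox6a2, Cox7a1, Cox8b and the cardiac list, pleural 5 follows it for Cox6a2 and Cox8b with a cardiac sum of 19.1 TPM, and Cox6a1 stays between 438 and 549 TPM.

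The rest of the pathway was described from lists of fixed membership. Complex II, the succinate dehydrogenase that also serves the citric acid cycle, had none of its 4 subunits (Sdha, Sdhb, Sdhc and Sdhd) called by limma in any of the 6 comparisons, and at most 2 had an unadjusted p below 0.05 in a comparison. Sdhb came nearest, with 176 ± 8.99 TPM (SD, n = 6) in pleural and 198 ± 11.0 TPM (n = 5) in subcutaneous tumours (−0.17, adjusted p = 0.0507), and passed under median-of-ratios scaling (−0.26, adjusted p = 0.0280). Cycs, the cytochrome c that links complexes III and IV, was not called in any comparison, and neither was any of 18 citric acid cycle genes in whole tumours (1, 3 and 2 at an unadjusted p below 0.05 in pleural against subcutaneous, peritoneal against subcutaneous and pleural against peritoneal). Idh2, a mitochondrial isocitrate dehydrogenase, was the 1 cycle gene that rose in peritoneal against subcutaneous sorted cells, from 128 to 166 TPM (0.37, adjusted p = 0.00590).

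Atpif1, the inhibitor that blocks reverse running of the ATP synthase, was 359 ± 30.2 TPM (SD, n = 6) in pleural and 408 ± 17.3 TPM (n = 5) in subcutaneous tumours (−0.19, SE 0.06, limma adjusted p = 0.0446). Its pleural values ran from 326 to 401 TPM and overlapped the subcutaneous 388 to 429 TPM. In sorted cells Atpif1 was lower in pleural than in peritoneal cells (−0.31, SE 0.08, adjusted p = 0.0324), at 313 to 363 against 352 to 476 TPM. Without peritoneal 2 and 5 the difference was −0.17 (adjusted p = 0.135). These 2 comparisons had the same direction as the medians of the ATP synthase subunits.

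Assembly factors, which help build the complexes without being part of them, moved gene by gene. Of 16 factors for complex I, 0 passed in whole tumours (1, 1 and 3 at an unadjusted p below 0.05, in the same order) and 3 were lower in pleural against peritoneal sorted cells (Tmem186, Ndufaf4 and Dmac1), where 5.51% of all genes were, and 0 without peritoneal 2 and 5. Of 6 tested for complex III, Ttc19 was higher in pleural (13.3 TPM) and peritoneal tumours (12.1 TPM) than in subcutaneous ones (9.82 TPM), with differences of 0.40 (limma adjusted p = 0.000884) and 0.28 (adjusted p = 0.0100), and Uqcc3 was lower in pleural tumours. Of 22 for complex IV, 1 was higher and 2 lower in pleural against subcutaneous tumours, beside 9.4% and 3.4% of all genes. The higher one, Higd1a, a small protein induced in low oxygen that the hypoxia list also holds, rose from 77.4 to 142 TPM (0.85, limma adjusted p = 0.00739). In sorted cells 2 complex IV factors were higher in peritoneal than subcutaneous cells, beside 4.75% of all genes. A further 3 calls were lower in pleural than peritoneal cells, beside 5.51%, with Coa4 at 6.04 against 11.1 TPM (−0.80, limma adjusted p = 0.00594). Without peritoneal 2 and 5 these counts were 0 and 1, with Coa4 remaining lower (−0.70, adjusted p = 0.0358). Of 5 ATP synthase factors, Fmc1 was lower in pleural than in subcutaneous tumours (−0.20, adjusted p = 0.0290).

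Of 14 regulators of mitochondrial biogenesis, 2 were higher in pleural against subcutaneous tumours (Yy1 and Lrpprc) and 3 in peritoneal against subcutaneous tumours (Ppargc1b, Tfam and Lrpprc), with 0 lower in either, beside 9.4% and 8.52% of all genes higher. Under median-of-ratios scaling 0 of these were called in either comparison. Tfam, which packages and transcribes mitochondrial DNA, had 44.5 ± 2.61 TPM (SD, n = 5) in peritoneal and 38.5 ± 3.19 TPM (n = 5) in subcutaneous tumours (0.21, limma adjusted p = 0.0382). Ppargc1a, the coactivator known for inducing mitochondria, lay between 1.53 and 2.99 TPM in whole tumours and was called in no comparison of either table. In sorted cells Polrmt, Tfb1m and Twnk, which transcribe mitochondrial DNA, modify its ribosomal RNA and unwind it for replication, were lower in pleural than peritoneal cells, beside 5.51% of all genes, with Polrmt at 8.48 against 13.4 TPM (−0.60, adjusted p = 0.0297). Without peritoneal 2 and 5 the lower genes of this list were Twnk and Lrpprc, and Polrmt was at −0.51 (adjusted p = 0.120). Of 15 tested transcripts of the mitochondrial genome, 14 were lower in peritoneal against subcutaneous sorted cells (median −1.40, 6.33% of all genes lower), 0 were called in pleural against subcutaneous cells (median −0.13, 1 at an unadjusted p below 0.05), and 14 were higher in pleural against peritoneal cells (4.45% of all genes higher). In the same order, 1, 1 and 3 of 74 nuclear members were lower and 3, 0 and 0 higher.

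Glycolysis and hypoxia genes gave a contrast in size to the members. In pleural against subcutaneous tumours, 13 of 16 glycolysis and 13 of 15 hypoxia genes were higher, where 9.4% of all genes were, with medians of 0.52 and 0.80, beside 0 of 81 members higher and a member median of −0.05. Under median-of-ratios scaling the counts were 10 of 16 and 9 of 15. In peritoneal against subcutaneous tumours the counts were 3 of 16 and 4 of 15, beside 8.52% of all genes. In sorted cells, 4 of 16 glycolysis and 1 of 14 hypoxia genes were higher in pleural and the same numbers in peritoneal against subcutaneous cells, where 0.397% and 4.75% of all genes were. The glycolysis medians were 0.44 and 0.18, and the hypoxia medians 0.49 and −0.18. Between pleural and peritoneal cells, 3 of 16 glycolysis and 4 of 14 hypoxia genes were higher in pleural cells, beside 4.45% of all genes, with medians of 0.17 and 0.61.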

How the data were processed

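Bulk RNA was sequenced as 50 bp single-end reads, per the labels' protocols, with different RNA kits for whole tumours and sorted cells. The submitters' processing notes name kallisto and the build GRCm39. The authors deposited the resulting levels as TPM, 1 value per gene and library, and TPM keeps no record of read depth, so depth is unknown here. Which kallisto version and annotation release were used, and how transcripts were summed, is not given in the sources used here. Whole tumour libraries sum to 1000000 TPM and sorted cell libraries to 996124 to 998055, and 17 date-like entries of the sorted table were left out.

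Each table was fitted apart by limma 3.58.1 (R 4.3.3, eBayes with an intensity trend) on log2(TPM + 1), with the 3 sites in 1 fit and no covariate, over genes that reached 1 TPM in 5 or more libraries. Calls used a Benjamini-Hochberg adjusted p below 0.05 over all genes tested. The fit was tested on simulated data with known changes. The labels give every library of a table its own mouse, so p-values measure the spread between mice of a site, and most mouse numbers recur in both tables. For 3 whole peritoneal tumours the number in the title (2, 3 and 4) is 1 lower than that in the library name, and title numbers are used throughout. Members and lists were chosen with earlier results of these data known. Full values are given for the most abundant member per complex, called members, 7 pairs of common and restricted subunits, Atpif1, and per list the called gene that differed most, with the complex II subunits, Cycs, Ppargc1a, Tfam and Car9; other called genes of short counts were named after their values were seen. Alternatives were the pseudocount, the filter, the scaling, robust variances, the 2 sites alone, a replicate block and leaving out libraries. Replicate numbers did not pair the samples, since the 3 sites used different mice.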

Additional observations from a re-analysis of the deposited data

Results flagged for a closer look

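In each group of 4 to 10 libraries, the gap between the highest or lowest library and its nearest neighbour was set against the range of the group. The 138 groups covered the complex shares and the leading, called and common or restricted members, not all members. Libraries stood out in 16 groups. The cut-off is set for about 1 in 20 by chance, but these groups share libraries and their genes were chosen with values known. The 16 groups are therefore not read as an excess over chance. Whole tumour pleural 3 was apart from the other pleural tumours for Cox6a2 (103 TPM), Cox7a1 (65.0 TPM), Cox8b (59.4 TPM), Ndufc2 (157 TPM) and Ndufa6 (261 TPM). Other whole tumour values apart from their group were Ndufa6 in subcutaneous 4 (218 TPM), Ndufa4l2 in peritoneal 2 (15.0 TPM) and Cox8b in peritoneal 7 (0.935 TPM).

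Among sorted cells, subcutaneous 2 was apart for Ndufc2 (137 TPM), Ndufa6 (281 TPM) and the complex I share (0.583% of TPM). Peritoneal 5 was apart for Ndufc2 (135 TPM), Cox6b1 (619 TPM) and Cox7a2 (411 TPM). Pleural 2 was apart for Ndufs7 (109.6 TPM) and pleural 1 for the complex III share (0.187%).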

How the results depend on the processing

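Of 314 alternative values for the 12 called member differences, 200 kept the call, 114 lost it and 0 changed direction. The calls were not equally stable. Both Ndufa4l2 calls held in 25 of 25, not counting the filter of 5 TPM that removed the gene, and Atp5h in pleural against peritoneal cells held in 25 of 26. The other calls held in between 10 of 27 (Cox7a2l, whole tumours) and 21 of 26 (Ndufa6, sorted cells). Depth is unknown, and precision is limited by 5 or 6 libraries per site. Without 1 library at a time, whole pleural against subcutaneous tumours gave 0 to 1 members higher, 0 to 11 lower and 748 to 2226 genes called. There, 0 members were lower without any 1 of subcutaneous 1 to 5, peritoneal 3 or 7, or pleural 2, 4, 5 or 7, 3 without peritoneal 4 and 11 without pleural 3, and 1 was higher without pleural 7. Whole peritoneal against subcutaneous gave 0 to 2 higher, 0 to 4 lower and 896 to 2178 genes. Whole pleural against peritoneal gave 0 to 33 genes. Sorted pleural against subcutaneous cells gave 118 to 268 genes, peritoneal against subcutaneous 0 to 5 members higher and 752 to 1610 genes, and pleural against peritoneal 1 to 8 members lower and 528 to 1420 genes.

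For whole pleural against subcutaneous tumours, the members lower were 0 with no filter (1136 genes called), 9 with median-of-ratios scaling (member median −0.14), 0 when rescaled without mitochondrial, haemoglobin and antibody genes, 0 with the 2 sites alone, 12 without pleural 3 and 5, and 6 without these and subcutaneous 2 (1275 genes called). For whole peritoneal against subcutaneous tumours, members higher and lower were 0 and 0 with no filter (1164 genes called), 0 and 2 with median-of-ratios scaling (member median −0.0661), 1 and 5 with the 2 sites alone, and 1 and 3 without pleural 3, 5 and subcutaneous 2. There, 0 were higher with quantile normalization and 5 were lower without pleural 3 and 5. For whole pleural against peritoneal tumours, genes called were 0 with a pseudocount of 0.1 or a filter of 5 TPM, 4 with median-of-ratios scaling, 5 with robust variances, 21 without pleural 3 and 5, and 29 without these and subcutaneous 2. Rescaling put the whole tumour shares of complexes I, IV and V at 0.639%, 0.558% and 0.754%.

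For sorted pleural against subcutaneous cells, a filter of 5 TPM left 0 members lower (107 genes called) by removing Ndufa4l2, and leaving out subcutaneous 1 and 2 left 70 genes called. For sorted peritoneal against subcutaneous cells, 0 members were lower with the filter of 5 TPM, and 0 were higher with median-of-ratios scaling, with rescaling, with the 2 sites alone and without peritoneal 2 and 5 (741 genes called). There, 1 was higher without subcutaneous 1 and 2, and quantile normalization called 2486 genes. For sorted pleural against peritoneal cells, members lower were 0 with median-of-ratios scaling (1932 genes called), 7 with quantile normalization (2229), 1 with the 2 sites alone (696) and 1 without peritoneal 2 and 5 (485, member median −0.0323). The cause of these shifts was not tested.

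With the replicate block, 849, 656 and 0 genes were called in whole pleural against subcutaneous, peritoneal against subcutaneous and pleural against peritoneal tumours, and 0 members were higher and 0 lower in the second. Deviations of same-numbered libraries correlated at −0.377 to 0.349, so a pairing was not established, and the block used the title numbers, which differ from the library names for 3 peritoneal tumours. The share of calls that were higher moved from 73.4% to 41.3% (median-of-ratios) and 48.4% (quantile) in whole pleural against subcutaneous, and from 70.1% to 42.3% and 48.2% in whole peritoneal against subcutaneous tumours. In sorted cells it moved from 24.1% to 39.7% (quantile) in pleural against subcutaneous, from 42.9% to 61.3% (quantile) and 31.6% (rescaled) in peritoneal against subcutaneous, and from 44.7% to 55.1% (median-of-ratios) and 55.5% (rescaled) in pleural against peritoneal cells.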
